A study of Drosophila melanogaster with 4 samples.

Results

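Cluster 4 is one of the 16 clusters, numbered 0 to 15, into which the deposited metadata sort the nuclei of the control libraries of an adult male abdominal cuticle single-nuclei RNA-seq (snRNA-seq) experiment. Its members are all control nuclei that carry that cluster number, 1025 of 15280. They made up 402 of 7213 nuclei (5.57%) in library 1 and 623 of 8067 nuclei (7.72%) in library 2, and the experiment holds 25141 nuclei in 4 libraries. The study places cluster 4 within adipose tissue, beside the main adipose clusters 0 and 2, and *Obp99b* leads the marker genes by which it is examined here.

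The flies of 2 libraries carried UAS-Tsc1, UAS-Tsc2/+, which block TOR signaling (*oeno-ts>tsc1,tsc2*), and the control flies of the other 2 libraries carried UAS-2xEGFP/+ (*oeno-ts>EGFP*). All were adult w1118 males with the oenocyte driver and the temperature-sensitive Gal80 repressor (PromE-GAl4, tub-Gal80ts/+). By the labels they were kept on standard food at 18 °C and moved to 29 °C for 4 days to induce the transgenes. The study's general methods describe a longer over-expression regime that ends on a high-sugar diet, and which regime these flies had was not settled here. Each library pools 40 abdomens without intestines and male reproductive organs, so the variation between animals is not visible. PromE-GAl4 is an oenocyte driver, so the transgenes were not aimed at adipose nuclei. The labels number the libraries but do not say how the cohorts were raised, so the spread between libraries may be partly technical.

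The fat body of the fly is an adipose and liver-like tissue that stores triglyceride and glycogen, makes the apolipophorins that carry lipid in the hemolymph, and secretes carrier proteins, growth factors and immune peptides. Odorant-binding proteins (Obp) and the Npc2 family are small secreted proteins. Obp bind hydrophobic ligands, Npc2 proteins bind sterols, and *Obp99b* is known as a male-biased fat body gene. Nuclei hold unspliced and newly made transcripts, while mitochondrial transcripts and most mRNA of ribosomal protein genes sit outside the nucleus.

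A count stands for a unique molecular identifier (UMI), that is, a captured transcript molecule, after the authors had subtracted ambient RNA. Library totals were 3972281 and 1449112 UMIs in the tsc1,tsc2 libraries and 3256566 and 3924035 UMIs in the EGFP libraries, with median nuclei of 431 and 468 UMIs and of 372 and 417 UMIs. Cluster 4 nuclei were deeper. Their median was 700 and 657 UMIs in EGFP libraries 1 and 2, against 382 and 409 in cluster 0 and 310 and 313 in cluster 2. At 250 UMIs per nucleus, the mean number of genes detected was 140 and 148 in cluster 4, against 134 and 146 in cluster 0 and 151 and 159 in cluster 2. Of the nucleus barcodes, 74 occur in both EGFP libraries, and 11 cluster 4 nuclei carry one of them, of which 1 barcode is in cluster 4 in both. Cluster 8, another adipose cluster, held 280 and 11 nuclei in the EGFP libraries and was not used as a comparison. Because the clusters were made from these same counts, the differences between cluster 4 and other control clusters are given below as levels per library in CPM, the count of a gene scaled by the UMI total of the summed nuclei, without a test.

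*Obp99c* and the Npc2 genes were the most widely shared of the marker genes. All of the marker genes lie on chromosome 3R of Release 6 of the genome, *Obp99b* (FBgn0039685) at 29716254 to 29716896, *Obp99c* (FBgn0039682) at 29685736 to 29689311, *Npc2g* (FBgn0039800) at 30744605 to 30745263 and its neighbour *Npc2h* (FBgn0039801) at 30745479 to 30746290. *Gycalpha99B* overlaps *Obp99c* on the opposite strand, and the other 4 marker genes have no overlapping gene in the annotation used.

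*Obp99c* was measured at 11618 and 9491 CPM in cluster 4 of libraries 1 and 2, against 1665 and 1902 CPM in clusters 0 and 2 and 1164 and 1337 CPM in all other clusters. It was detected in 60.9% and 46.9% of cluster 4 nuclei (Wilson 95% intervals 56.1% to 65.6% and 43.0% to 50.8%), against 10.2% and 11.5% of nuclei of clusters 0 and 2. Thinned to 250 UMIs per nucleus, these shares were 60.1% and 46.3% in cluster 4, against 10.2% and 11.5% in clusters 0 and 2. The difference in detection was thus about as large when all nuclei were thinned. In the oenocyte cluster 1, a cell type not known for *Obp99c* and with a median of 342 and 414 UMIs, the share was 1.14% and 1.33%. After the subtraction of ambient RNA no cluster 4 nucleus carried 1 to 3 *Obp99c* UMIs, and the effect of that step on the shares was not tested. The intervals cover counting error only.

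Both *Npc2* genes showed the same order. *Npc2g* gave 7074 and 6088 CPM in cluster 4, against 1044 and 1427 CPM in clusters 0 and 2, and was detected in 55.2% and 45.6% of cluster 4 nuclei, against 9.11% and 11.3% in clusters 0 and 2 and 2.05% and 1.68% in cluster 1. *Npc2h* gave 2725 and 2264 CPM in cluster 4, against 306 and 480 CPM in clusters 0 and 2, and was found in 36.1% and 25.5% of nuclei, against 3.57% and 5.68% in clusters 0 and 2 and 0.987% and 0.908% in cluster 1. These levels exceeded those of cluster 0 and of cluster 2 in both libraries. On the log2 scale with 10 CPM added to both sides, the ratios over clusters 0 and 2 were 2.80 and 2.31 for *Obp99c*, 2.75 and 2.09 for *Npc2g* and 3.11 and 2.22 for *Npc2h*. Between nuclei of 400 to 800 UMIs they were smaller, at 2.36 and 1.60 for *Obp99c*, 2.47 and 1.68 for *Npc2g* and 2.27 and 1.22 for *Npc2h*.

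*Obp99b*, the first of the markers, was spread differently. It reached 2394 and 922 CPM in cluster 4, against 110 and 93.6 CPM in clusters 0 and 2, a log2 ratio of 4.33 and 3.17. It was detected in only 28 of 402 nuclei in library 1 (6.97%) and 33 of 623 nuclei in library 2 (5.30%), against 0.989% and 0.713% of nuclei of clusters 0 and 2 and 3.06% and 1.34% of nuclei of cluster 3. In cluster 3 the epidermal markers summed to 21641 and 16482 CPM and the muscle markers to 18509 and 17387 CPM, so it is called by its number. Of its 709 and 422 UMIs, 4 and 3 nuclei held 50% or more, and the richest nucleus carried 121 and 93. A high *Obp99b* level was thus not shared by most of these nuclei, and they are called by their cluster number here.

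**Figure D1:**
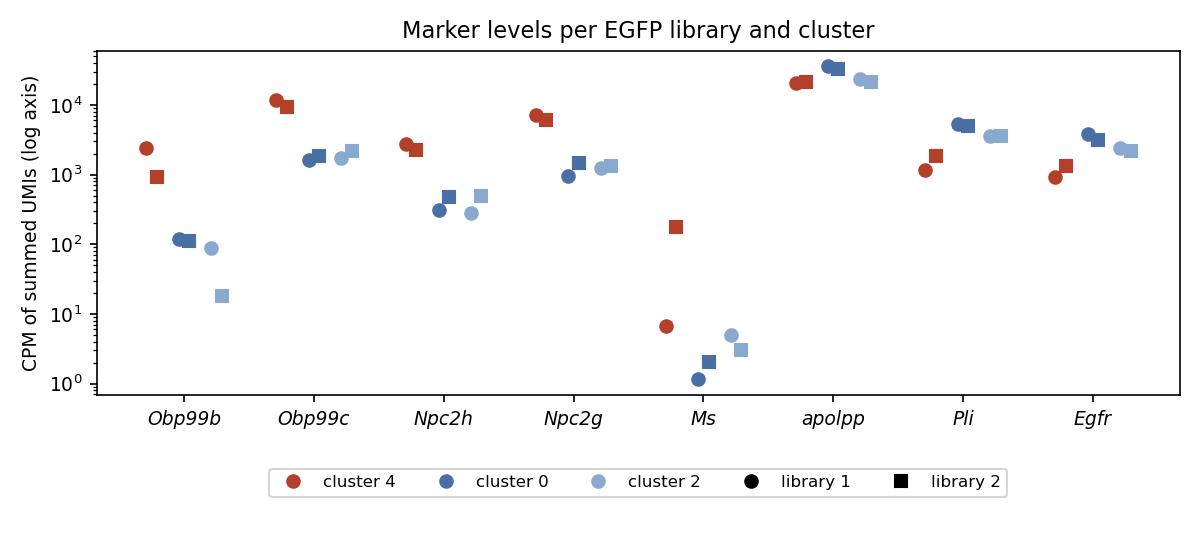
Level of marker and adipose genes in CPM (log axis) in clusters 4, 0 and 2, with a circle for EGFP library 1 and a square for library 2. *Obp99c*, *Npc2h* and *Npc2g* stand higher in cluster 4 in both libraries and *Pli* and *Egfr* lower, while the *Ms* level of library 2 rests on 1 nucleus.

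*Ms*, which encodes the neuropeptide myosuppressin, was found in fewer nuclei still. Cluster 4 held 82 *Ms* UMIs, of which 78 lay in 1 nucleus of library 2 that carried 506 UMIs in all. Only 5 cluster 4 nuclei had any *Ms* UMI, and the level of library 2 was 175 CPM with the richest nucleus and 4.38 CPM without it. In library 1 *Ms* was at 6.75 CPM in cluster 4, against 2.37 CPM in clusters 0 and 2. It was detected in 0.498% and 0.482% of cluster 4 nuclei, against 0.228% and 0.559% of nuclei of the oenocyte cluster 1. Outside the richest nucleus *Ms* was read as background here.

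**Figure D2:**
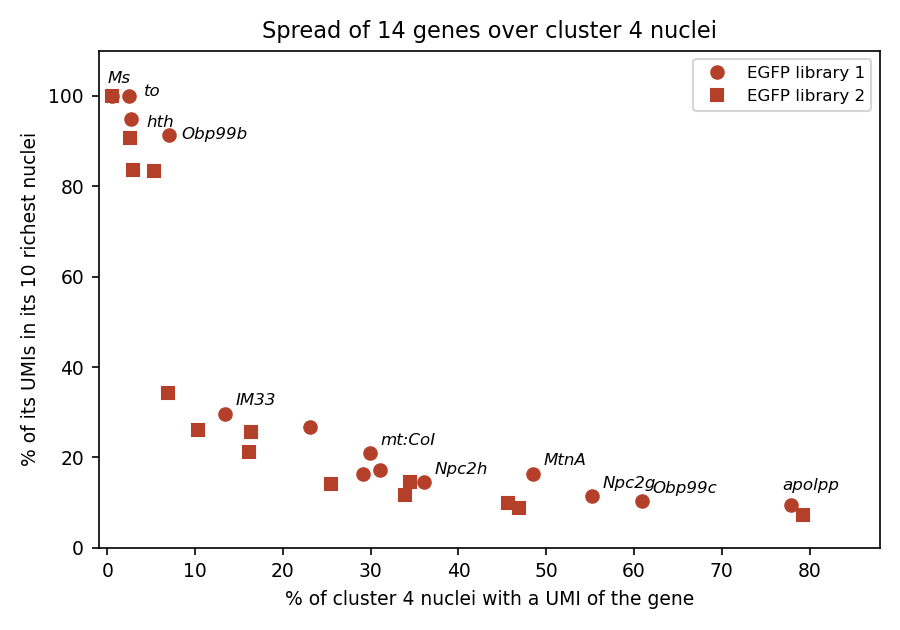
For 14 genes, the percentage of cluster 4 nuclei with a UMI of the gene against the percentage of its UMIs that the 10 richest nuclei held, per EGFP library. *Ms*, *to*, *hth* and *Obp99b* sit at the upper left, with the 10 richest nuclei holding 83.4% or more, while *Obp99c* and *Npc2g* sit at the lower right, below 12%.

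Nuclei with at least 5 *Obp99b* UMIs numbered 15 in cluster 4 of each EGFP library (3.73% and 2.41% of its nuclei) and held 95.6% and 89.8% of the *Obp99b* UMIs of cluster 4. Without them *Obp99b* was at 108 and 97.4 CPM in cluster 4, against 40.4 and 25.5 CPM in clusters 0 and 2 without such nuclei. The bound of 5 was set after the counts were seen. In cluster 4 of library 1, 2 nuclei had exactly 5 *Obp99b* UMIs and 2 had 4, and in library 2 these numbers were 3 and 2. These nuclei were not confined to cluster 4, since of 66 in the control libraries 30 were in cluster 4, 21 in clusters 0 and 2, 9 in cluster 3 and 6 elsewhere.

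The *Obp99b*-rich nuclei also stood out for *takeout* (*to*), another gene known to be male-biased in the fat body of the head. In cluster 4 *to* was detected in 7 of the 15 *Obp99b*-rich nuclei in library 1 and 10 of the 15 in library 2, against 3 of 387 and 6 of 608 other cluster 4 nuclei. The transcription factor gene *hth* was detected in 4 and 6 of these 15 nuclei, against 7 and 12 of the others. The *Obp99b*-rich nuclei had a median of 627 and 1078 UMIs, against 700 and 647.5 in the other cluster 4 nuclei, so those of library 2 were deeper. *Obp99c* was found in 13 of the 15 in each library, against 59.9% and 45.9% of the other cluster 4 nuclei. The oenocyte gene *FASN3* was found in 0 and 1 of them, and the muscle gene *Mhc* in 0 of 15 in both. *to* and *hth* were picked because they were high in the *Obp99b*-rich nuclei, so their counts describe them and are no test.

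Next, the genes of cluster 4 were compared with those of clusters 0 and 2 across the whole table. Of 3718 genes with enough counts, 359 (9.66%) were at least 2-fold higher and 322 (8.66%) at least 2-fold lower in cluster 4 in both libraries. The median log2 ratio over all genes was −0.31 and −0.32. The higher genes held 40.3% and 34.4% of the UMIs of cluster 4, against 8.67% and 8.88% of those of clusters 0 and 2. Scaled with TMM factors, the split was 421 higher and 145 lower and the medians were −0.20 and −0.16, so counts of lower genes depend on the scaling. With library 1 or library 2 alone, 906 and 493 genes were lower and 512 and 471 higher.

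Transcripts that are mostly cytoplasmic led the list. Of the 20 genes with the largest ratio, 5 were mitochondrially encoded, 8 were ribosomal protein genes and 2, *ND-MLRQ* and *cype*, encode subunits of the respiratory chain. The others were *Obp99b*, the nucleoside diphosphate kinase gene *awd*, *CG9691*, the immune-induced peptide gene *IM33* and the acyl-CoA binding protein gene *Acbp2*. The highest, *mt:CoI*, a subunit of cytochrome c oxidase, was at 7020 and 2039 CPM in cluster 4, against 271 and 62.0 CPM in clusters 0 and 2. It was detected in 29.9% and 10.3% of cluster 4 nuclei, against 1.41% and 0.309% in clusters 0 and 2 and 47.7% and 25.6% in cluster 3.

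Mitochondrially encoded genes took 2.24% and 0.691% of the UMIs of cluster 4, against 0.0364% and 0.0224% in cluster 0 and 0.328% and 0.143% in cluster 2. Of 13 mitochondrial genes 9 had enough counts, and 7 of these were higher, with medians of 3.75 and 3.64. Cytosolic ribosomal protein genes, which encode the protein part of the translating ribosome, took 9.64% and 9.29% of the UMIs of cluster 4, against 0.997% and 1.39% in cluster 0 and 3.51% and 3.72% in cluster 2. Of 92 such genes 81 had enough counts and 77 were higher, with medians of 2.42 and 2.31. Of nuclear genes for oxidative phosphorylation subunits, a list added after the counts were seen, 42 of 55 were higher, with *ATPsynC*, the ring subunit of ATP synthase, at 2840 and 3260 CPM in cluster 4, against 323 and 521 CPM in clusters 0 and 2. Of 31 translation factor genes, also listed later, 8 were higher, among them *eEF1alpha1* at 4288 and 5039 CPM, against 622 and 863 CPM, and the helicase gene *eIF4A* at 1232 and 1685 CPM, against 199 and 214 CPM.

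**Figure D3:**
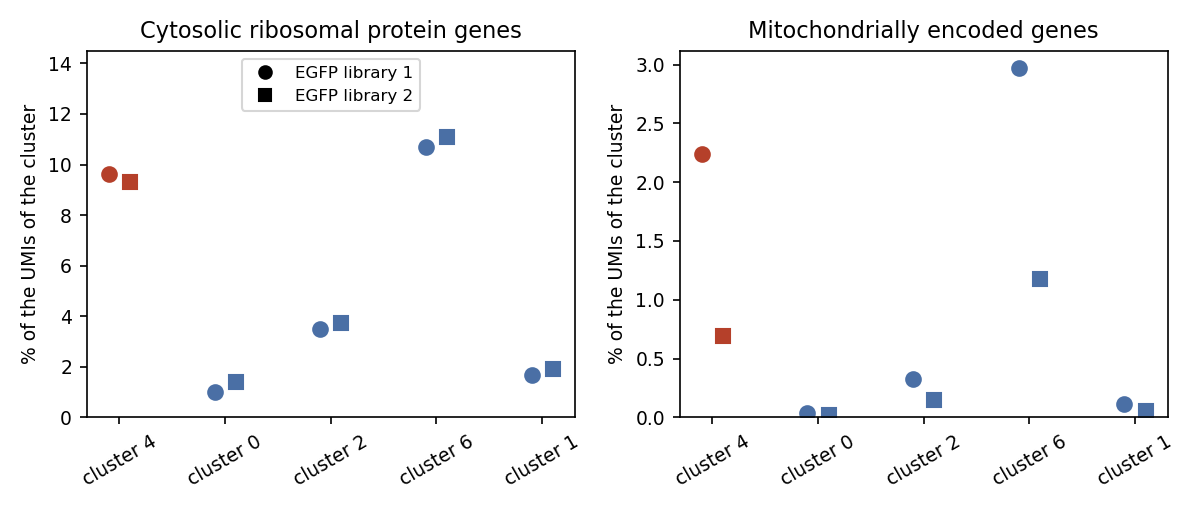
Percentage of the UMIs of a cluster in cytosolic ribosomal protein genes (left) and in mitochondrially encoded genes (right), with a circle for EGFP library 1 and a square for library 2. Cluster 4 and the deep oenocyte cluster 6 are high in both classes, and cluster 0 and the main oenocyte cluster 1 are low.

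These classes were spread over the nuclei unevenly. The upper quartile of the ribosomal protein share over cluster 4 nuclei was 12.7% in library 1 and 11.6% in library 2. In clusters 0 and 2 it was 2.61% and 2.76%. No mitochondrial UMI was present in 55.5% and 76.1% of cluster 4 nuclei. The highest ribosomal protein share of a cluster 4 nucleus was 47.7% and 48.6%.

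Splitting cluster 4 of each library at its median ribosomal protein share gave 201 and 312 nuclei at or above it and 201 and 311 below it. *Obp99c* was high in all of these, at 11109 and 11324 CPM in the upper nuclei, against 12232 and 7404 CPM in the lower nuclei. *apolpp*, the gene of the main lipoprotein backbone, was at 14866 and 15479 CPM in the upper nuclei, against 28111 and 28604 CPM in the lower. *Pli*, which encodes a Pellino protein of the Toll pathway, was at 488 and 944 CPM, against 1965 and 2924 CPM. The upper nuclei of both libraries were thus lower in these adipose transcripts, while for *Obp99c* the order differed between the libraries. The upper nuclei were also deeper, with medians of 759 and 725.5 UMIs, against 621 and 613 in the lower nuclei. *FASN3* was at 982 and 431 CPM in the upper nuclei, against 700 and 392 CPM, and the muscle gene *Mhc* at 105 and 177 CPM, against 96.8 and 9.34 CPM. The part of depth and of these genes in the split was not tested.

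Adipose markers were present in cluster 4, several of them at lower levels. *apolpp* was detected in 77.9% and 79.3% of cluster 4 nuclei, against 81.2% and 82.8% of those of clusters 0 and 2 and 10.3% and 7.55% of those of cluster 1, and was at 20873 and 21619 CPM, against 32098 and 30643 CPM in clusters 0 and 2. *FASN1*, the fatty acid synthase of the fat body, was at 7040 and 5072 CPM, against 5065 and 4078 CPM. Of the 10 adipose marker genes 4 were at least 2-fold lower, against 8.66% of all genes, with medians of −1.41 and −0.95 for the list. The 4 were *Pli*, *Egfr*, *CG13868* and *CG10960*, and with TMM factors 1 gene of the list was lower. Between nuclei of 400 to 800 UMIs 1 of the 10 was lower, with medians of −1.24 and −0.76. Of the 9 list genes with a known span 6 span 10 kb or more, a class in which lower genes were frequent, as given with the gene spans below. *Pli* was detected in 21.4% and 34.8% of cluster 4 nuclei, against 46.5% and 47.5% of those of clusters 0 and 2, and *FASN1* in 57.7% and 48.3%, against 36.1% and 33.3%.

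The lower genes, 8.66% of all, included 4 of 9 receptor genes, 4 of 8 clock genes and 3 of 10 fat body transcription factor genes. Of these lists 7, 6 and 7 genes span 10 kb or more, a class in which lower genes were frequent, as given with the gene spans below. *InR*, the insulin receptor gene, was at 469 and 865 CPM in cluster 4, against 1905 and 1905 CPM in clusters 0 and 2, and *Egfr* was at 932 and 1322 CPM, against 3379 and 2974 CPM. *InR*, *Egfr*, *EcR* and *Pvr* were the lower receptor genes, and none of the 9 passed 2-fold in both libraries with TMM factors. The median log2 ratio of the receptors was −1.45 and −0.96. Of the 8 clock genes *tim*, *cwo*, *Pdfr* and *Pdp1* were lower, and the transcription factor genes *Mef2*, *srp* and *EcR* were lower of 10, with TMM factors leaving 2 of each list. Between nuclei of 400 to 800 UMIs, 1 of 6 receptor, 0 of 6 clock and 0 of 7 transcription factor genes were lower. Of all 1547 genes with enough counts there 49 were lower. The medians of these lists stayed below 0 in both libraries. *srp*, the GATA factor of the fat body, was at 81.0 and 85.2 CPM, against 201 and 228 CPM.

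The genes lowest in cluster 4 were *CG11360*, *lolal*, *Xe7*, *RhoGAP19D*, *Mbs*, *scrib*, *Hers*, *Plc21C*, *Fur1* and *Dmtn*. *CG11360* was at 23.6 and 6.56 CPM, against 155 and 107 CPM, and *scrib*, which encodes a cell polarity protein, at 70.9 and 105 CPM, against 279 and 355 CPM. *Fur1*, a proprotein convertase gene, was at 203 and 363 CPM, against 832 and 1119 CPM, and overlaps other genes in the annotation. The log2 ratio of all 10 was −1.59 or lower in both libraries.

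The higher genes, 9.66% of all, included 2 of 12 sugar genes, 4 of 14 antioxidant genes and 2 of 7 hormone genes. These lists are short, and whether their counts differ from that share was not tested. *Tps1*, which makes trehalose, the blood sugar of insects, was at 3728 and 4069 CPM in cluster 4, against 1193 and 1423 CPM in clusters 0 and 2, and *Pgm1*, phosphoglucomutase, at 598 and 710 CPM, against 151 and 252 CPM. Of the antioxidant genes *Sod1*, *Cat*, *Trx-2* and *Jafrac1* were higher, and *Keap1*, an inhibitor of the antioxidant response, was lower. *Sod1* was at 1584 and 1604 CPM, against 284 and 336 CPM. Fat body growth factor genes *Gbp1* and *Gbp2* were higher, *Gbp1* at 182 and 142 CPM, against 26.0 and 39.5 CPM, and *Gbp2* at 317 and 326 CPM, against 66.3 and 116 CPM. *Ilp6*, an insulin-like peptide gene, did not pass 2-fold, at 118 and 190 CPM, against 337 and 329 CPM.

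Over all genes 9.66% were higher and 8.66% lower. Iron genes had 2 of 3 members past 2-fold, and 0 of 3 between nuclei of 400 to 800 UMIs. *Fer2LCH*, the ferritin light chain gene, was at 1378 and 1274 CPM, against 474 and 571 CPM, and *Tsf1*, a transferrin gene, at 1209 and 1228 CPM, against 186 and 519 CPM. The third with enough counts did not pass. Of 14 secretory pathway genes with enough counts only *Pdi* was higher, a count near the share over all genes. *Pdi*, a protein folding enzyme of the endoplasmic reticulum, was at 192 and 210 CPM, against 27.6 and 53.0 CPM. Between nuclei of 400 to 800 UMIs 2 of 4 secretory pathway genes were higher. Of 11 lipid storage genes none was higher, and *whd*, the carnitine palmitoyltransferase gene of fatty acid oxidation, and *mdy*, a diacylglycerol acyltransferase gene, were lower. Between nuclei of 400 to 800 UMIs 0 of 10 lipid storage genes were lower. *LpR1*, a lipophorin receptor gene, was higher at 179 and 89.6 CPM, against 46.5 and 15.2 CPM, and *LpR2*, at 1752 and 1914 CPM, against 4403 and 3256 CPM, did not pass 2-fold in both libraries.

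Against all other clusters together the order changed. *Obp99b* led with log2 ratios of 4.28 and 3.16, followed by *Obp99c* with 3.31 and 2.82, *CG9691* with 2.70 and 2.74, *Npc2h* with 3.43 and 2.70 and *Npc2g* with 3.22 and 2.56. The ribosomal protein genes had medians of 0.89 and 0.94, and none of the 11 mitochondrial genes passed 2-fold. Other clusters held as much or more of these transcripts. Cluster 3, for example, carried 14.1% and 15.5% of its UMIs in ribosomal protein genes.

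Markers of other cell types moved with these results. The summed level of the oenocyte markers was 2309 and 942 CPM in cluster 4, against 536 and 335 CPM in clusters 0 and 2. In the oenocyte cluster 1 it was 43728 and 53182 CPM. *FASN3*, an oenocyte fatty acid synthase, was at 854 and 413 CPM in cluster 4, against 145 and 94.1 CPM. *Cyp4g1*, the oenocyte cytochrome P450, is listed at 0 in every nucleus of all 4 libraries and so tells nothing here. The muscle markers summed to 1398 and 990 CPM, against 543 and 492 CPM, and *Tm2* and *Mlp60A* were the 2 of 8 that passed 2-fold. Of the 3 epidermal markers with enough counts *CG14661* and *Drsl4* were higher and *Ddc* lower. Hemocyte, neuron and tracheal markers summed to 165 and 199, 155 and 91.8, and 64.2 and 43.7 CPM in cluster 4, against 144 and 143, 148 and 104, and 37.1 and 28.2 CPM. The part of these genes in the results was not tested.

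The difference in these transcripts was also present between nuclei of equal depth. In nuclei of 800 to 1200 UMIs, ribosomal protein genes took 10.6% and 10.8% of the UMIs of cluster 4 (110 and 146 nuclei), against 0.336% and 0.428% in clusters 0 and 2 (32 and 89 nuclei). In the nuclei under 400 UMIs the share was 9.32% and 10.7% in cluster 4 (34 and 39 nuclei), against 2.17% and 2.52% in clusters 0 and 2. Between these classes the share was thus lower in the deeper nuclei of clusters 0 and 2, and in cluster 4 it was not. In cluster 4 nuclei of 400 to 600 UMIs it was 6.68% and 6.30%. Cluster 2, with a share of 3.51% and 3.72% in all, had no nucleus above 750 UMIs in library 1. The part of the mix of clusters 0 and 2 in their fall was not tested. Among nuclei of 400 to 800 UMIs, 236 genes were higher and 49 lower of 1547 with enough counts, and 76 of 77 ribosomal protein genes were among the higher.

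The ratios also followed the length of the gene. Genes spanning under 1 kb had medians of 0.20 and 0.12, and genes spanning over 30 kb medians of −1.17 and −0.91. Of the 410 shortest genes 24.4% were higher and 0.732% lower, and of the 324 longest 1.54% were higher and 32.1% lower. Without the mitochondrial, ribosomal protein, oxidative phosphorylation and translation factor genes, the medians were 0.10 and 0.01 in the shortest class and −1.18 and −0.91 in the longest. In nuclei of 800 to 1200 UMIs, genes of 10 kb or more took 18.3% and 23.7% of the UMIs of cluster 4, against 58.5% and 54.5% in clusters 0 and 2. Long genes hold most of their length in introns, so unspliced transcripts give them many UMIs in nuclei. Outside the 4 RNA classes named above, cluster 4 nuclei carried a mean of 625 and 635 UMIs, against 406 and 440 in cluster 0.

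**Figure D4:**
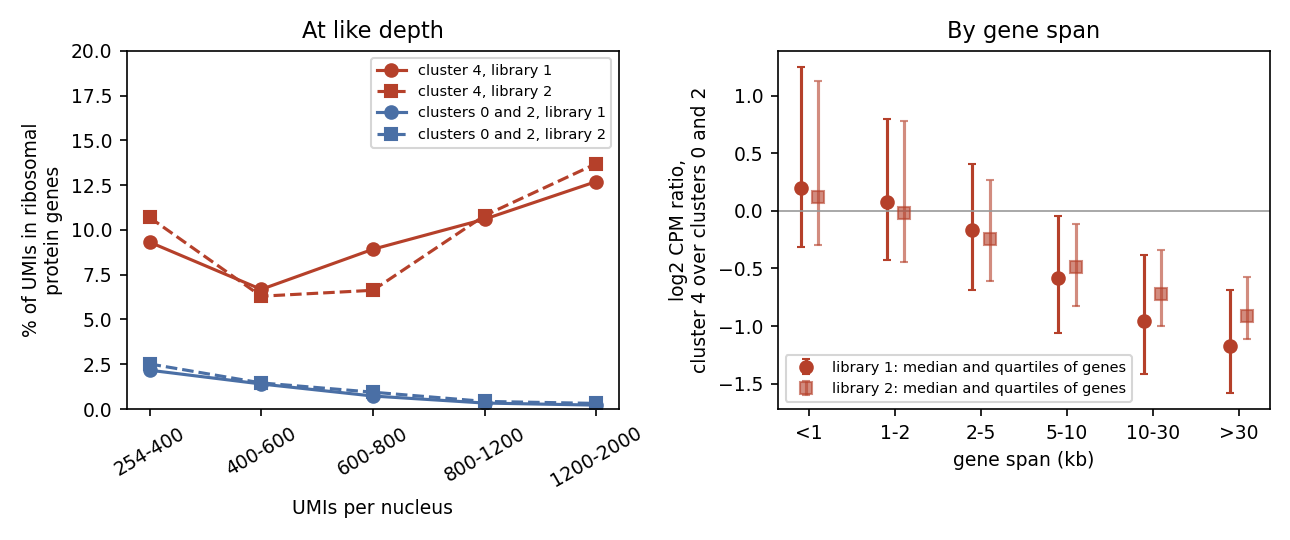
Left, percentage of UMIs in ribosomal protein genes by UMIs per nucleus for cluster 4 and for clusters 0 and 2, per EGFP library. Right, median and quartiles over genes of the log2 CPM ratio of cluster 4 over clusters 0 and 2, by the span of the gene in kb. The share stays above 6% in cluster 4 and at most 2.52% in clusters 0 and 2, whose deepest class holds 2 and 8 nuclei, and the median ratio is lower at each longer span.

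The same contrast was looked at in oenocytes, whose deep cluster 6 (185 and 219 nuclei) stands beside the main cluster 1 (1317 and 1431 nuclei). Ribosomal protein genes took 10.7% and 11.1% of the UMIs of cluster 6, against 1.66% and 1.93% in cluster 1. Over 1268 genes with enough counts in both contrasts, the mean log2 ratios of cluster 4 over clusters 0 and 2 and of cluster 6 over cluster 1 correlated at a Pearson r of 0.87. These points share the libraries and the RNA classes, and genes are not independent replicates, so the value describes these clusters only. Of 231 genes higher in cluster 4 and countable in cluster 6, 180 were higher in cluster 6 and 4 lower, and of 211 lower genes 133 were lower and 0 higher, while over all 1398 genes 285 were higher and 403 lower.

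Some leading genes of cluster 4 did not follow this shared pattern. *Obp99b* had log2 ratios of −0.31 and 0.88 in cluster 6 over cluster 1, *IM33* −0.16 and −0.70 and *LpR1* −1.22 and −1.18, against 4.33 and 3.17, 2.73 and 2.76, and 1.74 and 1.98 in cluster 4 over clusters 0 and 2. *Obp99c* had 1.01 and 1.33 in cluster 6 over cluster 1, and *Npc2g* 0.68 and 0.20. *mt:CoI* had 4.97 and 4.66, close to its ratios in cluster 4. No test of the difference between the contrasts was made, since both were made from the counts that made the clusters.

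The contrast was then tested in the *oeno-ts>tsc1,tsc2* libraries, whose counts were not used to make the clusters of the control nuclei. Nuclei were assigned to the 16 clusters by the likelihood of their counts under the control profiles, and each gene was measured in nuclei that had been assigned without it, from the other of 2 sets of genes. Applied to the control libraries with the profiles of the other one, the assignment found 67.9% and 65.4% of the deposited cluster 4 nuclei of library 1 with each gene set and 44.9% and 45.1% of those of library 2. Of the nuclei it assigned to cluster 4, 64.0% to 75.1% were deposited in cluster 4. The assigned class is therefore an approximation.

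Of 5253 genes tested, edgeR's quasi-likelihood test with Benjamini-Hochberg adjustment called 141 higher (2.68%) and 6 lower (0.114%) in nuclei assigned to cluster 4, against nuclei assigned to clusters 0 and 2. Both sums of a library come from the same pool of animals, and with the library as a replicate block 505 were higher (9.61%) and 393 lower (7.48%). *Obp99c* was at 7816 and 8923 CPM in nuclei assigned to cluster 4, against 2075 and 2283 CPM, a log2 fold change of 2.18 ± 0.38 (SE, edgeR adjusted p = 0.0356). *Npc2g* rose as well, with 7083 and 9268 CPM, against 1850 and 2064 CPM (log2 fold change 2.31, edgeR adjusted p = 0.0367). *Npc2h* gave 1956 and 3780 CPM, against 505 and 798 CPM, and did not pass (2.46, edgeR adjusted p = 0.0623, and 0.00148 with the block). *Obp99b* gave 194 and 736 CPM, against 52.1 and 143 CPM, and did not pass either (2.65, edgeR adjusted p = 0.0974, and 0.00316 with the block). The groups did not overlap for any of the 4 genes, but with 2 sums in each group this carries little weight. Its share over all genes is not given here. Between nuclei of 400 to 800 UMIs the fold changes were smaller and no longer passed for *Obp99c* (1.27, edgeR adjusted p = 0.116, and 0.0238 with the block) and *Npc2g* (1.41, edgeR adjusted p = 0.117, and 0.0205 with the block).

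Ribosomal protein genes led in number. Genes of this class were in both gene sets, so nuclei were assigned to cluster 4 partly by other ribosomal protein genes. The same holds for the mitochondrial and oxidative phosphorylation genes. *Obp99c* and *Npc2g* were likewise measured in nuclei assigned partly by *Obp99b*, *Npc2h* and ribosomal protein genes. *Obp99b* and *Npc2h* were measured in nuclei assigned partly by *Obp99c*, *Npc2g* and ribosomal protein genes. The rise of these classes and of the markers is thus no independent test. Of 83 ribosomal protein genes tested, 73 rose and none fell, with a median log2 fold change of 2.77, against −0.02 over all genes. *RpL38* was at 2866 and 4167 CPM, against 509 and 269 CPM (3.52, edgeR adjusted p = 0.0329). Of 10 mitochondrial genes *mt:CoI*, *mt:CoII* and *mt:Cyt-b* rose, and 7 with the block. Of 61 oxidative phosphorylation genes 10 rose, and 44 with the block. The antioxidant genes *GstD1* and *Sod1* rose, and *GstD1* is returned to below. The metallothionein gene *MtnA*, chosen after its values were seen, was at 7360 and 5993 CPM, against 2155 and 1411 CPM (2.14, edgeR adjusted p = 0.0329). None of the 10 adipose markers passed, with a median of −1.50, and 7 fell with the block.

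The 6 genes that fell included *tkv*, a BMP receptor gene, *Sin3A*, a corepressor gene, *raskol*, *CG42524* and *CG8468*. *CG10543* was the other gene. *Sin3A* was at 110 and 60.6 CPM, against 464 and 559 CPM (−2.37, edgeR adjusted p = 0.0395). *tkv* (−2.21, edgeR adjusted p = 0.0410) was the 1 receptor of 9 that fell, with 6 when the block was used, and the median of the receptors was −1.54. Of the 10 muscle markers none passed, with a median of 1.69, and 8 rose with the block. *Mhc* was at 214 and 177 CPM in nuclei assigned to cluster 4, against 70.2 and 76.5 CPM.

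The control ratios were set beside these tests gene by gene. Of the 359 genes higher in cluster 4 of the control libraries, all tested here, 358 (99.7%) had a log2 fold change above 0 and 118 rose. Of 320 lower genes 8 were above 0 and 5 fell, while over all 3631 genes 42.7% were above 0. The mean control ratio and the log2 fold change correlated at a Pearson r of 0.82 across 3631 genes, which share the cluster profiles used for the assignment. Within nuclei of 400 to 800 UMIs edgeR called 0 of 2985 genes in either direction, with 265 higher and 315 lower at an unadjusted p under 0.05. DESeq2 called 93 higher and 71 lower there, and edgeR with the block 129 and 119.

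**Figure D5:**
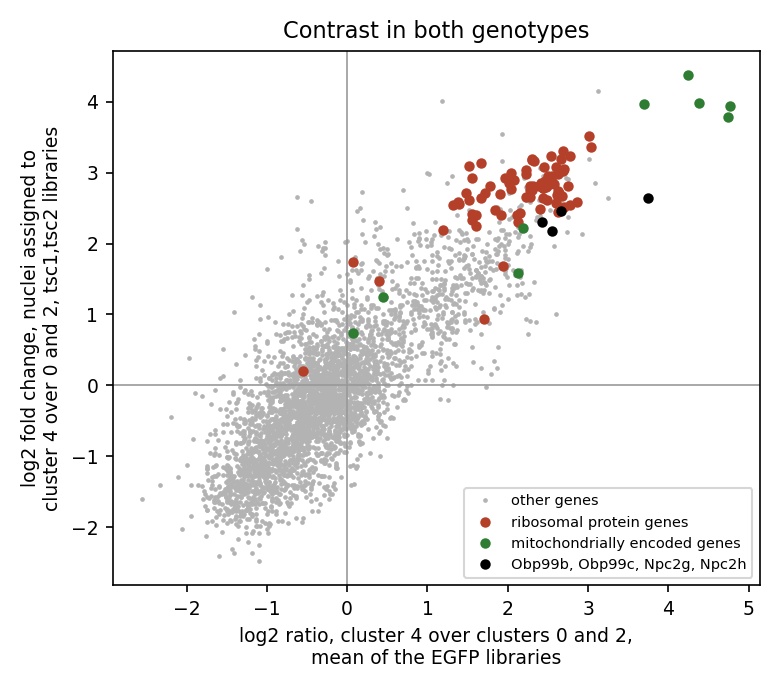
Each of 3631 genes by its mean log2 CPM ratio of cluster 4 over clusters 0 and 2 in the EGFP libraries (x axis) and its log2 fold change between nuclei assigned to cluster 4 and to clusters 0 and 2 in the tsc1,tsc2 libraries (y axis). Ribosomal protein and mitochondrially encoded genes lie together at the upper right with *Obp99b*, *Obp99c*, *Npc2g* and *Npc2h*.

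The genes with the largest fold change in this test rested on few nuclei. *Sytbeta*, which encodes a synaptotagmin, gave 1980 and 3505 CPM, against 27.8 and 6.65 CPM (7.49, edgeR adjusted p = 0.0105), and *CG42521* gave 1491 and 1715 CPM, against 34.8 and 33.3 CPM (5.86, edgeR adjusted p = 0.0105). Nuclei with at least 3 *Sytbeta* UMIs, a bound set after the counts were seen, were 39 of the 711 nuclei assigned to cluster 4 in tsc1,tsc2 library 1 and 5 of 218 in library 2, in the assignment by which *Sytbeta* was measured. They held 98.6% and 99.9% of the *Sytbeta* UMIs tested, 96.1% and 100% of those of *CG42521* and 69.0% and 82.1% of those of *GstD1*. Of the UMIs of the adipose marker *apolpp* they held 1.24% and 0.626%. Whether these nuclei are adipose was not tested. *Obp99c* was measured in the other assignment, in which nuclei with at least 3 *Sytbeta* UMIs numbered 15 in library 1 and 1 in library 2. Those held 0.664% and 0% of the *Obp99c* UMIs tested. Without the *Sytbeta*-rich nuclei of both assignments the fold change of *CG42521* was 0.21 (edgeR adjusted p = 0.937) and that of *GstD1* 1.86 (edgeR adjusted p = 0.104). *Sytbeta*, *CG10175* and *CG8072* then had too few counts to test, and 151 genes were called higher and 7 lower.

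The effect of oenocyte tsc1,tsc2 on the nuclei assigned to cluster 4 was compared last. In the counts of all genes these nuclei made up 8.76% and 10.5% of the tsc1,tsc2 libraries, against 5.27% and 4.26% of the EGFP libraries. As deposited, cluster 4 made up 5.57% and 7.72% of the EGFP libraries. The nuclei of an EGFP library were assigned with the profiles of the other EGFP library alone. Those of the tsc1,tsc2 libraries were assigned with the mean of both EGFP libraries. The part of this unlike assignment in the shares and in the genotype comparison below was not tested. With 2 libraries in each genotype the exact two-sided permutation test gives p = 0.333, the smallest value it can reach. The genotypes were processed in separate tables, so genotype and batch cannot be told apart.

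Of 3925 genes 14 rose (0.357%) and 5 fell (0.127%) in the tsc1,tsc2 libraries by edgeR's quasi-likelihood test. The cluster 4 markers were not among them. *Obp99c* was at 7816 and 8923 CPM in tsc1,tsc2 nuclei, against 12508 and 12403 CPM in EGFP nuclei (−0.48, edgeR adjusted p = 0.727). *Obp99b* was at 194 and 736 CPM, against 2572 and 1247 CPM (−1.79, edgeR adjusted p = 0.488). The values for *Npc2g* overlapped, at 7083 and 9268 CPM, against 7537 and 7778 CPM, as did those for *Npc2h*, at 1956 and 3780 CPM, against 2797 and 3093 CPM. Without EGFP library 1 the counts were 52 higher and 11 lower, and without tsc1,tsc2 library 2 they were 23 and 10.

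The 5 genes that fell were *Sgp*, *to*, *TotC*, *Lectin-galC1* and *CG16904*. *Sgp* was at 63.9 and 23.3 CPM in tsc1,tsc2 nuclei, against 1520 and 1494 CPM in EGFP nuclei (−4.95, edgeR adjusted p = 0.00112). *to* was at 22.0 and 4.66 CPM, against 168 and 393 CPM (−4.10, edgeR adjusted p = 0.0191), and without the *Obp99b*-rich nuclei its fold change was −2.92 (edgeR adjusted p = 0.121). *TotC*, a stress-induced Turandot gene, was at 7.98 and 9.32 CPM, against 85.9 and 81.3 CPM (−3.18, edgeR adjusted p = 0.0302). *Lectin-galC1* was at 42.3 and 55.3 CPM, against 370 and 454 CPM, and *CG16904* at 208 and 264 CPM, against 1459 and 1476 CPM. In nuclei assigned to clusters 0 and 2, all 5 genes were likewise lower in both tsc1,tsc2 libraries than in both EGFP libraries. *Sgp* was at 38.9 and 6.65 CPM there, against 191 and 211 CPM, so these differences were not particular to cluster 4.

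The 14 genes that rose were *CG42521*, *Anp*, *CG8072*, *Cyp6a8*, *CG10175*, *Sytbeta*, *CG18628*, *CG34189*, *CG43101*, *scpr-C*, *Obp56d*, *blanks*, *Pif2* and *kraken*. *CG42521*, *CG8072*, *CG10175*, *Sytbeta* and *CG34189* had 84.4% to 100% of their UMIs in the *Sytbeta*-rich nuclei described above and were not testable without them, when 10 genes rose and 7 fell. *CG18628* was measured in the other assignment, with 15 *Sytbeta*-rich nuclei in library 1 and 1 in library 2. These held 73.2% and 70.3% of its UMIs tested. It rose with and without such nuclei, with log2 fold changes of 7.06 and 5.25 (edgeR adjusted p = 0.00214 and 0.00976). *CG42521* was at 0 UMIs in both EGFP sums, and its level in the tsc1,tsc2 sums was at least 298-fold higher, counting 3 UMIs over both EGFP libraries. Of the others, *Cyp6a8*, a cytochrome P450 gene, was at 162 and 51.3 CPM, against 0 and 0 CPM (edgeR adjusted p = 0.00755), with 1.23% and 0% of its UMIs in the *Sytbeta*-rich nuclei. *Anp*, the antibacterial peptide andropin of the male ejaculatory duct, was at 73.8 and 345 CPM, against 0 and 0 CPM (edgeR adjusted p = 0.0196). *Obp56d* was the 1 odorant-binding protein gene of 11 that rose, at 223 and 72.3 CPM, against 7.05 and 6.77 CPM. In nuclei assigned to clusters 0 and 2 the genotypes overlapped for *Obp56d*, *Sytbeta*, *CG8072* and *CG18628*. The other genes that rose were also higher there in both tsc1,tsc2 libraries, some on few UMIs. *Cyp6a8* was at 145 and 66.5 CPM there, against 7.01 and 4.19 CPM.

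Male tract genes were looked at as markers of another tissue. Of the 8 male tract markers 6 were tested, with a median log2 fold change of 2.37, against 0.01 over all genes, and none passed. *EbpII*, an ejaculatory bulb protein gene, was at 3016 and 936 CPM in tsc1,tsc2 nuclei, against 575 and 3.39 CPM in EGFP nuclei, which differ widely from each other. The 7 antimicrobial peptide genes tested had a median of 2.38 and none passed. Their part in the result was not tested. The 83 ribosomal protein genes had a median of 0.76 and the 9 mitochondrial genes one of −0.55, with none called.

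In the tsc1,tsc2 libraries 10 and 18 nuclei of any cluster carried at least 5 *Obp99b* UMIs (0.132% and 0.794% of nuclei), against 33 and 33 in the EGFP libraries (0.458% and 0.409%), so the shares of the genotypes overlapped. *to* was found in 0 of the 10 and 0 of the 18, against 14 of 33 and 20 of 33 in the EGFP libraries. *hth* was found in 3 of 10 and 7 of 18, against 12 of 33 and 18 of 33. These nuclei come from 2 libraries of each genotype and are not replicates, so the genotypes were not compared by them.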

How the data were processed

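Nuclei of 4 libraries were measured by droplet (10x) snRNA-seq. The authors aligned reads to a pre-mRNA reference of FlyBase release 6, counted UMIs, subtracted a fixed fraction of ambient RNA with SoupX and removed nuclei of extreme totals, and the deposited values are counts per gene and nucleus. The submitters' processing notes name Cell Ranger 3.1.0 and Seurat 3.1.2. The authors clustered the control nuclei after Harmony integration, and the cluster number was taken as deposited. Strand use in counting is not stated, and reads of genes that overlap on opposite strands may therefore be mixed. No doublet caller was run. The removal of nuclei of extreme totals does not exclude doublets among those kept, and their part in the results was not tested.

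Counts were summed per library and cluster with Python 3.11.15, numpy 2.4.6, scipy 1.17.1 and pandas 2.3.3. Genes were kept where cluster 4 would hold at least 10 UMIs in each library at the level of clusters 0, 2 and 4 together, 10 CPM was added to both sides of a ratio, and a gene counted as higher or lower at 2-fold in both libraries. Nuclei were assigned by multinomial likelihood. Those of an EGFP library were assigned with the profiles of the other EGFP library, and those of the tsc1,tsc2 libraries with the mean of both. Tests used edgeR 4.0.16 in R 4.3.3 (TMM, filterByExpr, Benjamini-Hochberg adjusted p under 0.05), with DESeq2 1.42.0 as an alternative, and were tested on simulated data. Sums of a tsc1,tsc2 library share a pool of animals, and same-numbered sums deviated together (r = 0.44), so the block is given beside that result.

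Coordinates, spans and overlaps come from an annotation of genome release 6, in which 13294 of 13955 genes matched by symbol. The genes named are the 5 markers, listed genes by role, the 20 highest and 10 lowest by the weaker ratio of both libraries, and the genes at the extremes of each test; *MtnA* and the other genes that rose or fell between genotypes were named after their values were seen. The members and lists were chosen with earlier results of these data known. The oxidative phosphorylation, translation factor and *takeout* lists, the *Obp99b* and *Sytbeta* bounds and the alternatives built on them were chosen after seeing the data.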

Additional observations from a re-analysis of the deposited data

How the results depend on the processing

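In the control libraries, 359 genes were higher and 322 lower in cluster 4. With nuclei of 400 to 800 UMIs the counts were 236 higher and 49 lower. The count of lower genes was 145 with TMM factors, 166 with nuclei weighted equally, 142 with 50 CPM added and 577 against cluster 2 alone, and against all other clusters 196 genes were higher. With 1 library left out, 493 to 906 genes were lower. In the tsc1,tsc2 libraries, 141 genes rose and 6 fell in nuclei assigned to cluster 4. DESeq2 gave 281 and 141, no filter beyond 1 count 396 and 348, at least 10 counts in every sum 407 and 292, and the replicate block 505 and 393. The count that fell was 93 with UMI totals alone, 27 at a posterior of at least 0.9, 51 when assigned with all genes and 20 without *Obp99b*-rich nuclei. With 400 to 800 UMIs, edgeR gave 0 and 0, with the block 129 and 119, and DESeq2 93 and 71. Leaving out a library there leaves no residual degrees of freedom, so no test was run.

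Between genotypes 14 genes rose and 5 fell. No filter beyond 1 count gave 76 and 30, and at least 10 counts in every sum 6 and 14. The count that fell was 12 with DESeq2, 3 when assigned with all genes and 10 without *Obp99b*-rich nuclei. With 400 to 800 UMIs 4 genes rose, with DESeq2 as well 2, and with the replicate block 23 rose and 24 fell. With the replicate block alone 10 rose and 3 fell. Numbers there do not show a pairing, since same-numbered sums deviated together at r = 0.18. With 1 library left out, 10 to 52 genes rose and 4 to 11 fell. The fold change of *Npc2h*, 0.17, was −0.04 with UMI totals alone, −0.03 assigned with all genes and −0.00 with 400 to 800 UMIs and the block, and −0.64 to 0.70 with 1 library left out. That of *Npc2g*, 0.19, was −0.18 with 400 to 800 UMIs, −0.19 with the block as well, −0.16 with DESeq2 as well and −0.21 to 0.50 with 1 library left out, the lowest values of both genes being without tsc1,tsc2 library 2. The cause of these differences was not tested. Depth limits the genes of few UMIs, and 2 libraries a genotype limit every test.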
